A study of Mus musculus with 8 samples.

Results

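DNA methylation was described at 8 mouse genes for Fc receptors and Fc receptor-like proteins: Fcgr2b, Fcer2a, Fcmr, Fcrl1, Fcrl5, Fcrla, Fcrlb and Fcer1g. They are part of the family, chosen with earlier results of these data known (11 other Fc receptor genes are compared at the end), and are 8 of the 21082 protein-coding genes whose promoter could be tested. Each locus was the gene body in GENCODE M21 on GRCm38 with 10 kb to either side, and CpGs were used that each of the 4 files covered with 5 or more reads. The 8 loci held 2939 such CpGs and 288 windows of 1 kb with at least 3 of them, of 2018320 windows in the genome. The loci of Fcrla and Fcrlb overlap, and 15 windows were counted once for both.

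Spleens of C57BL/6J mice aged 6 to 8 weeks gave resting CD43- B cells and naive CD4+ T cells sorted as CD62Lhi, CD44lo and CD25-, from females and from males. Per the study's methods, cells of several mice were pooled in each sample. Whole-genome bisulfite sequencing reads 5-methylcytosine and 5-hydroxymethylcytosine alike, and a level is an average over cells, so that partial methylation in every cell and full methylation in some cells cannot be told apart. Each of the 4 groups had 2 samples and 1 file, with no label to say if both samples were merged in it. Each sex thus gives a single B against T difference, and no p-value measures a spread between animals of 1 group. Values are given for the female file first and the male file second.

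Fc receptors bind the constant part of antibodies and link them to the cells that carry the receptors. Resting B cells carry an inhibitory IgG receptor, the low-affinity IgE receptor CD23 and the IgM receptor, while activating Fc receptors on myeloid, mast and natural killer cells signal through the common gamma chain, which Fcer1g encodes. Fc receptor-like proteins are relatives of these receptors, most of them studied on B cells. Methylation of CpGs at a gene start or an enhancer is often low in cells that use the element.

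The mean depth was 14.6 to 17.7 reads per autosomal CpG in the 4 files, and the share of reference CpGs measured ran from 87.7% at the Fcgr2b locus to 98.1% at the Fcrlb locus. By the rule for a call given below, 5 of 7 promoters of B cell marker genes were called less methylated in B cells. Those of 6 of 8 T cell marker genes were called more methylated in B cells, against 0.896% of all promoters called in either direction. Among them were Ms4a1 (10.5% and 15.3% in the B files, 93.6% and 93.5% in the T files) and Cd3e (83.4% and 86.6% in B, 3.45% and 1.87% in T). The difference was below 0 in both sexes at all 7 B cell markers and above 0 at 7 of the 8 T cell markers. None of 8 myeloid and none of 3 erythroid marker promoters was called, though Lyz2, a myeloid marker, was at 41.5% and 50.7% in B and 64.1% and 66.7% in T cells (−19.3 points, adjusted p = 0.0488), and 1 of 5 natural killer marker promoters, Nkg7, was more methylated in B cells by 27.3 points. The part of other cells in the values of the 8 genes was not tested.

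The sequences of 9 stretches that carry the results are shown first, so that the CpGs described below can be located. Promoters are those of RefSeq on GRCm38, from 250 bases before to 50 after its gene start, and the others were read from the same genome. All run 5′ to 3′ on the strand of the gene, and capitals mark the CpGs.

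The starts of Fcmr (chr1:130865527-130865826, + strand) and Fcer2a (chr8:3694125-3694424, − strand), and 300 bases just inside Fcrla (chr1:170927041-170927340, − strand), are shown because they separated the cell types:
Fcmr promoter: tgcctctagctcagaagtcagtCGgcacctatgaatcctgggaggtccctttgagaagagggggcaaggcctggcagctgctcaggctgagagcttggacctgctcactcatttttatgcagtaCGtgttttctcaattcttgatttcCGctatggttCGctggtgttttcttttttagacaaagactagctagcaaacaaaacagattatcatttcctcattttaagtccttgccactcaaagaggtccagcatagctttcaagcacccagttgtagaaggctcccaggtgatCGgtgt
Fcer2a promoter: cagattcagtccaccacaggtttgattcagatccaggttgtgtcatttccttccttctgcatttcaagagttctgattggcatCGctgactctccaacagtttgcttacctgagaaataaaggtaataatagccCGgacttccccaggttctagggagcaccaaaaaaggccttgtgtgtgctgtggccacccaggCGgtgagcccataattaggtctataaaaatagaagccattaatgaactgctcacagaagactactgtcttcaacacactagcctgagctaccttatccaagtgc
Fcrla start: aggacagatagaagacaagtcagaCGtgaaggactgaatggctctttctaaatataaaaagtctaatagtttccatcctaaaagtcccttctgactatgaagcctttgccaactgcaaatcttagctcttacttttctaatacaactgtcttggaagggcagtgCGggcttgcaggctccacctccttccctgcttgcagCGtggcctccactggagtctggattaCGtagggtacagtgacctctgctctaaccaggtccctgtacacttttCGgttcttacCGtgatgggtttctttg

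The promoter of Fcrl1 (chr3:87376137-87376436, + strand) and a stretch in an intron (chr3:87377103-87377201) are shown because levels were alike in the first and apart in the second:
Fcrl1 promoter: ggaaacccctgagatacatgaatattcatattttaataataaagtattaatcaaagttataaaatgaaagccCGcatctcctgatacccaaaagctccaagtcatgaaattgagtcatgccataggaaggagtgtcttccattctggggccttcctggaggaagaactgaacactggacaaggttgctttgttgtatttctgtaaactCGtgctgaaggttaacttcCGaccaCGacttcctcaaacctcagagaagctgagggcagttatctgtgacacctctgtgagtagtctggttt
Fcrl1 intron: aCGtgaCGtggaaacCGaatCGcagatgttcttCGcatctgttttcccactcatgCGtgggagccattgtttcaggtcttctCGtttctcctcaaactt

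The Fcgr2b promoter (chr1:170976022-170976321, − strand) and the Fcer1g promoter (chr1:171234300-171234599, − strand) are shown for contrast, the first because 3 of its CpGs differed beside 3 that were low in B and T cells, the second because no window of its locus was called:
Fcgr2b promoter: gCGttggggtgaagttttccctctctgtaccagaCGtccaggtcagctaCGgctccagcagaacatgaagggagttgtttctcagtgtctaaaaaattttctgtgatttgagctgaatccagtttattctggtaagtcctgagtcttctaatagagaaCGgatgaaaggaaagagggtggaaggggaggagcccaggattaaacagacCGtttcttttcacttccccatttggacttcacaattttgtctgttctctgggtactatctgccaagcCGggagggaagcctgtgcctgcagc
Fcer1g promoter: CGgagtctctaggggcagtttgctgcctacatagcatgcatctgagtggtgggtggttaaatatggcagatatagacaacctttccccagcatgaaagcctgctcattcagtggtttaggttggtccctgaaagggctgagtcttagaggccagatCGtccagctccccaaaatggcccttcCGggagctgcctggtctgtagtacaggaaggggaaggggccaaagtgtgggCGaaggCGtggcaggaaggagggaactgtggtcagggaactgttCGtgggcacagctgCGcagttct

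Away from the starts, the strongest stretch of Fcrl5 (chr3:87487512-87487811, + strand) lies in an intron and that of the Fcrlb locus (chr1:170898524-170898710, − strand) outside any protein-coding gene:
Fcrl5 intron: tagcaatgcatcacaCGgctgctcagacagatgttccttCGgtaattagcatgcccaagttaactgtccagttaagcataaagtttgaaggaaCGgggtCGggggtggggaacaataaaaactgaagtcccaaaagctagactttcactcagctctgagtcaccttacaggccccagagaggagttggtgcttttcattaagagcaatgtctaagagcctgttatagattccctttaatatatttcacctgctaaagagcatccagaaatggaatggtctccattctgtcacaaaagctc
Fcrlb downstream: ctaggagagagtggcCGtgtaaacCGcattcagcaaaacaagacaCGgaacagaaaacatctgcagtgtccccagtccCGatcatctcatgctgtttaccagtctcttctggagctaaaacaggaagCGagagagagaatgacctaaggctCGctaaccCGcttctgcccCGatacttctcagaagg

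The first comparison asked where along the 8 loci B and T cells differed. At 7 of the 8 loci at least 1 window differed, most often with less methylation in B cells: 31 windows were lower in B cells and 4 were higher. The loci held 24 to 77 windows each. The share of all gene loci with at least 1 called window was not computed, so 7 of 8 cannot be compared with all genes. Across the 31, the median level was 44.0% in B cells and 86.8% in T cells. The differences of all 35 ran from 20.4 to 82.2 percentage points with a median of 31.3, and 7 windows differed by 50 points or more. In each of the 31 windows both B files lay below both T files, and in each of the 4 both lay above. The rule for a call, a mean difference of 20 points or more in these same files, makes this likely, so it is no separate evidence. Of the 35, 21 overlapped the gene body, 9 lay upstream and 5 downstream.

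A window was called where a quasi-binomial logistic model with terms for cell type and sex gave an adjusted p under 0.05 (Benjamini-Hochberg over all windows) and the mean of the differences in both sexes was 20 points or more. The prior for the dispersion of the windows had infinite degrees of freedom, so every window was given the same dispersion of 1.29 times binomial, its own spread between files did not enter its p, and the small p-values of windows come from the read counts and the size of the difference. The 35 called windows were 12.2% of those at the loci, against 2.08% of all windows and 2.78% of windows within 10 kb of any protein-coding gene. Windows lower in B cells were 10.8% at the loci and 0.914% in the genome, and windows higher in B cells were 1.39% and 1.17%. By single CpGs with a difference of 20 points or more in both sexes, 188 of 2939 (6.40%) were lower in B cells, against 1.43% of all CpGs, and 57 (1.94%) were higher, against 1.59%. The median window difference was −1.07 points at the loci and 0.05 points over all windows. With the prior for the dispersion estimated from all windows, no window of the genome was called (the window over the start of Fcrla had an adjusted p of 0.0565), and limma on log2 ratios of methylated to unmethylated reads called 16 of the 288, against 1.02% of all windows.

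**Figure D1:**
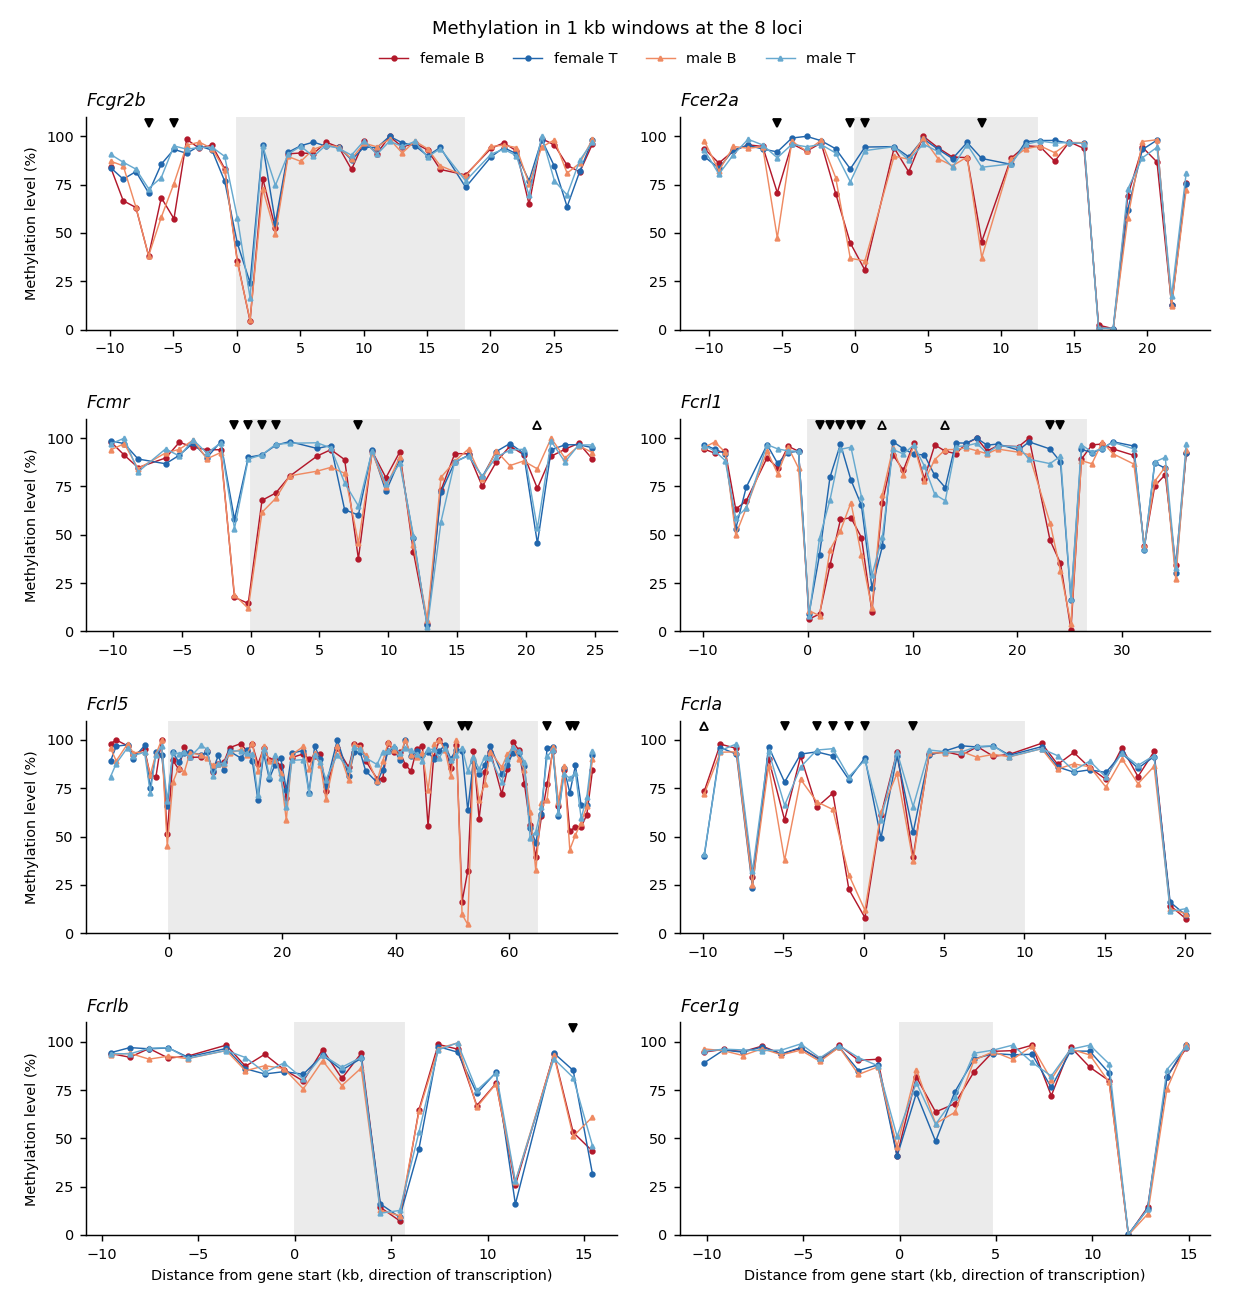
Methylation level in percent (y axis) of 1 kb windows against distance from the gene start in kb along the direction of transcription (x axis) at the 8 loci, with 1 line per file (B cells red and orange, T cells blue), the gene body in grey, filled triangles over windows called lower in B cells and open triangles over windows called higher. The lines of the cell types part at the starts of Fcer2a, Fcmr and Fcrla and deep inside Fcrl5, and run together along Fcer1g.

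The promoter, taken as the annotated gene start with 1 kb to either side, was less methylated in B cells at 3 of the 8 genes by the same rule: Fcrla, Fcmr and Fcer2a. In the genome 189 of 21082 promoters (0.896%) were called, 89 of them (0.422%) lower in B cells. The difference was below 0 in both sexes at 7 of the 8 promoters, among them Fcrlb at only −1.09 and −3.75 points. This held for 25.9% of all promoters, 45.5% of the 11 promoters of other Fc receptor genes and 53.8% of 13 signalling promoters. The median over the 8 was −15.2 points, against 0.15 over all promoters.

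**Figure D2:**
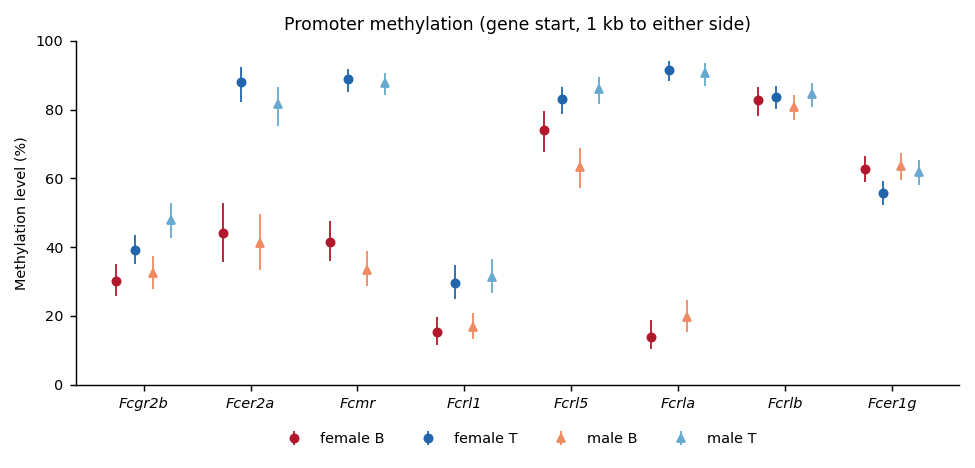
Promoter methylation in percent (y axis) of the 8 genes in each of the 4 files, with 95% Wilson intervals that cover counting error only. The B files lie far below the T files at Fcrla, Fcmr and Fcer2a, while the 4 files lie between 80.8% and 84.5% at Fcrlb and between 55.7% and 63.4% at Fcer1g.

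Fcgr2b encodes the inhibitory IgG receptor, the main Fc gamma receptor of B cells. Its promoter level was 30.2% in the female and 32.5% in the male B file and 39.3% and 47.8% in the T files. The difference of −12.2 points had an adjusted p of 0.127 in the quasi-binomial fit and was not called. Single CpGs divided this promoter. At the 3 CpGs from 228 to 276 bp downstream of the annotated start, the first 3 CpGs of the printed Fcgr2b promoter, the level was 16.9% and 20.6% in the B files and 66.7% and 70.8% in the T files. At the 9 CpGs from 385 to 920 bp, around the second annotated start of the gene (420 bp), the levels were 0.633% and 1.26% in the B files and 11.1% and 9.29% in the T files and the intervals of the B and T files did not overlap within a sex. The window chr1:170975001-170976000, which holds 5 of these CpGs and 1 further CpG at 1074 bp, was at 4.39% and 5.00% in the B files and 24.2% and 16.5% in the T files (adjusted p = 0.000124), a difference of −15.7 points that was below the size required. The further CpG was at 36.4% and 33.3% in the B files and 100% and 77.8% in the T files. The called windows of this locus were upstream. The window at chr1:170983001-170984000, at −7.0 kb and outside protein-coding genes, was at 38.2% and 38.1% in the B files and 70.7% and 72.9% in the T files (−33.7 points, adjusted p = 8.98e-12), and the one at chr1:170981001-170982000 was at 57.3% and 75.6% in B and 93.3% and 95.1% in T cells (−27.7 points, adjusted p = 2.46e-07). Fcgr2b and the nearby Fcgr3 hold near-identical sequence where short reads may be placed on either gene, and this locus had the lowest share of CpGs measured; the part of this in the values was not tested.

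Fcer2a encodes CD23, the low-affinity IgE receptor. Its promoter was at 44.1% in female B and 41.2% in male B cells, and at 88.1% and 81.6% in female and male T cells. B and T files did not overlap, and the difference of −42.2 points was called (adjusted p = 0.00288). The 3 CpGs of the printed Fcer2a promoter, from −165 to −52 bp of the start, were at 8.57% and 9.30% in the B files and at 69.4% and 68.4% in the T files. The strongest window, in an intron at chr8:3693001-3694000, was at 30.8% (95% Wilson interval 18.6 to 46.4) and 35.6% in the B files and 94.4% and 92.6% in the T files (−60.4 points, adjusted p = 6.56e-14). A second region of low methylation in B cells lay 8.7 kb inside the gene, where the window at chr8:3685001-3686000 was at 45.5% and 37.2% in the B files and 88.5% and 84.0% in the T files (−44.9 points). A window 5.3 kb upstream also differed, with levels of 70.8% and 47.5% in B and 91.9% and 88.9% in T cells. None of the 10 windows downstream of Fcer2a was called.

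Fcmr encodes the receptor for IgM. Its promoter was at 41.5% in female B and 33.4% in male B cells, and at 89.0% and 87.7% in the T files (−50.8 points, adjusted p = 6.80e-05). B cells were unmethylated at the start itself. At the 6 CpGs from −120 to 341 bp, which include all 5 CpGs of the printed Fcmr promoter, no methylated read was found in B cells. Counted at each CpG, these were 0 of 76 reads in the female file and 0 of 118 in the male file. This allows levels of up to 3.95% and 2.54% if the counts were independent, and more where 1 read covers several CpGs. The same CpGs had 88 of 106 reads methylated in female and 130 of 150 in male T cells, with no single CpG below 65.2%. A run of 12 neighbouring CpGs, each at least 20 points lower in B cells in both sexes, reached from −0.852 to 0.457 kb. The window over the start, chr1:130865001-130866000, was at 14.5% and 11.9% in the B files and 90.1% and 89.2% in the T files (−76.5 points, adjusted p = 2.29e-48). Further called windows lay at −1.2 kb (−37.3 points), 0.8 kb (−26.6 points), 1.8 kb (−26.4 points) and 7.8 kb (−21.0 points). Toward the 3′ end the direction turned. A run of 4 CpGs in an intron of Fcmr, from 14.07 to 14.36 kb, was at 72.5% and 77.6% in the B files and 28.8% and 20.3% in the T files. Runs were not tested, no window there was called, and the genome held 14577 runs of 4 or more CpGs higher in B cells. Beyond the 3′ end, the window at chr1:130886001-130887000, in an intron of the cytokine gene Il24, was at 74.0% and 84.1% in the B files and 45.5% and 53.3% in the T files (29.6 points, adjusted p = 3.01e-14). The Il24 promoter, which overlaps this window and shares CpGs with it, was higher in B cells by 28.8 points (adjusted p = 0.00955).

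Fcrl1 encodes an activating Fc receptor-like protein of B cells. Its promoter level was 15.2% and 16.8% in the B files and 29.6% and 31.4% in the T files. The difference of −14.5 points passed the adjusted p (0.0432) but not the size required. It was −6.83 points (adjusted p = 0.482) at CpGs with 10 or more reads and −2.38 points (0.807) within 500 bp of the start, and its adjusted p was 0.106 with limma. At the start no methylation was seen in either cell type: the 3 CpGs from −42 to −17 bp, the last 3 of the printed Fcrl1 promoter, had no methylated read in any of the 4 files. In the shallowest, the female B file, this allows levels of up to 11.5% if its 26 counts were independent. They are 8 or 9 reads at each CpG, and 1 read can cover all 3, so that the true limit is higher. The cell types parted further in. At the 7 CpGs from 717 to 798 bp, which are the printed Fcrl1 intron stretch, no methylated read was found in the female B file and the male B file was at 0.917%. In the T files 24 of 61 and 46 of 92 reads, counted at each CpG, were methylated. The female B file allows a level of up to 2.88% if counts at neighbouring CpGs were independent, and more where 1 read covers several. Windows from 1.1 to 5.1 kb into Fcrl1 were all lower in B cells, by 23.5 to 40.5 points, and 2 further windows near the 3′ end were lower by 38.9 and 56.0 points. In the latter, chr3:87400001-87401000, levels were 35.2% and 31.2% in B and 87.8% and 90.7% in T cells (adjusted p = 2.03e-23). Fcrl1 also held 2 windows with more methylation in B cells, at 7.1 kb (22.3 points) and 13.1 kb (22.6 points). The Fcrl1 window at 7.1 kb lost its call with limma (adjusted p = 0.293), with Fisher's exact test in each sex and without the female T or the male B file.

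Fcrl5 encodes an Fc receptor-like protein with both activating and inhibitory tails. Its promoter was at 74.1% and 63.2% in the B files and 83.0% and 86.1% in the T files (−15.9 points, adjusted p = 0.0875) and was not called. The difference was −8.84 points in females and −22.9 in males, and the interaction with sex had an adjusted p of 0.698. Deep in the gene, 51.7 kb from the start, the intron window at chr3:87487001-87488000 was at 16.3% and 9.71% in the B files and at 94.4% and 96.0% in the T files. Its difference of −82.2 points (adjusted p = 6.23e-55) was the largest of the 288 windows. The first 4 CpGs of this run, which are the 4 CpGs of the printed Fcrl5 intron, were at 13.4% and 1.49% in B and 96.3% and 97.6% in T cells. The next window, at 52.7 kb, was lower in B cells by 55.5 points on 22 to 28 reads a file. A smaller intron region of Fcrl5 at 45.7 kb was lower in B cells by 29.8 points, and 3 windows beyond the 3′ end by 20.7 to 31.8 points. The remaining windows of the Fcrl5 gene body were not called, and the body as a whole differed by −3.07 points.

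Fcrla encodes an intracellular relative of the receptors that is made in B cells and stays inside them. Its promoter was at 13.9% and 19.6% in the B files and 91.6% and 90.6% in the T files. The difference of −74.4 points (adjusted p = 1.80e-05) was the largest among the 8 promoters. The window over the start, chr1:170927001-170928000, was at 8.04% (95% Wilson interval 5.01 to 12.7) and 11.9% in the B files and at 90.7% and 89.5% in the T files (−80.2 points, adjusted p = 1.11e-110). All 10 CpGs from −54 to 527 bp were lower in B cells in both sexes, with no CpG above 20% in B cells or below 57.9% in T cells. The 6 CpGs of the printed Fcrla stretch were at 6.30% and 6.09% in B and 91.9% and 91.7% in T cells. Upstream, 4 further windows out to −4.9 kb were lower in B cells by 24.0 to 53.8 points, and 1 inside the gene at 3.1 kb by 20.4 points. At −9.9 kb the direction turned, and the window at chr1:170937001-170938000 was at 73.5% and 72.0% in the B files and 40% and 40.9% in the T files (32.4 points, adjusted p = 2.53e-09).

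Fcrlb encodes the other intracellular relative, next to Fcrla on the same strand. Its promoter was at 82.7% and 80.8% in the B files and 83.8% and 84.5% in the T files, and the difference of −2.42 points had an adjusted p of 0.754. The 2 windows at the 3′ end of Fcrlb were low in all files, between 7.35% and 16.1%. The single called window lay 14.4 kb from the start, downstream of the gene at chr1:170898001-170899000, and was at 53.1% and 51.1% in B and 85.2% and 81.5% in T cells (−31.2 points, adjusted p = 4.80e-26). Within it, the 8 CpGs of the printed Fcrlb downstream stretch were at 16.9% and 16.1% in B and 77.9% and 79.0% in T cells. Less than 1 kb further downstream, a run of 4 CpGs, which was not tested, went the other way, with 73.2% and 76.8% in the B files and 38.7% and 40.9% in the T files. The called window had an adjusted p of 0.0727 with limma. At this locus 2 windows were called at CpGs with 10 or more reads, 3 with 500 bp windows and 0 with 2 kb windows. In the genome these settings called 37421, 72395 and 16863 windows, against 41977 in the main fit.

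Fcer1g encodes the common gamma chain, the signalling adaptor of activating Fc receptors. Its promoter was at 62.8% and 63.4% in the B files and 55.7% and 61.8% in the T files, and the B files lay above the T files of the same sex by 7.14 and 1.68 points (mean 4.41, adjusted p = 0.526). The direction turned with 500 bp to either side of the start, as given in the closing section. None of its 26 windows was called by the quasi-binomial fit, by limma or by Fisher's exact test, the largest difference was 7.76 points, and 4 windows had an unadjusted p under 0.05. The 13 CpGs from −77 to 132 bp ranged from 0% to 50% in B cells and from 0% to 66.7% in T cells, and together they were at 18.1% and 14.8% in B and 24.4% and 32.5% in T cells. A single CpG at −327 bp of the Fcer1g start had 4 of 15 and 2 of 8 reads methylated in B cells and 13 of 16 and 10 of 11 in T cells, while the next CpG, at −233 bp, was at 77.8% or more in all 4 files.

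**Figure D3:**
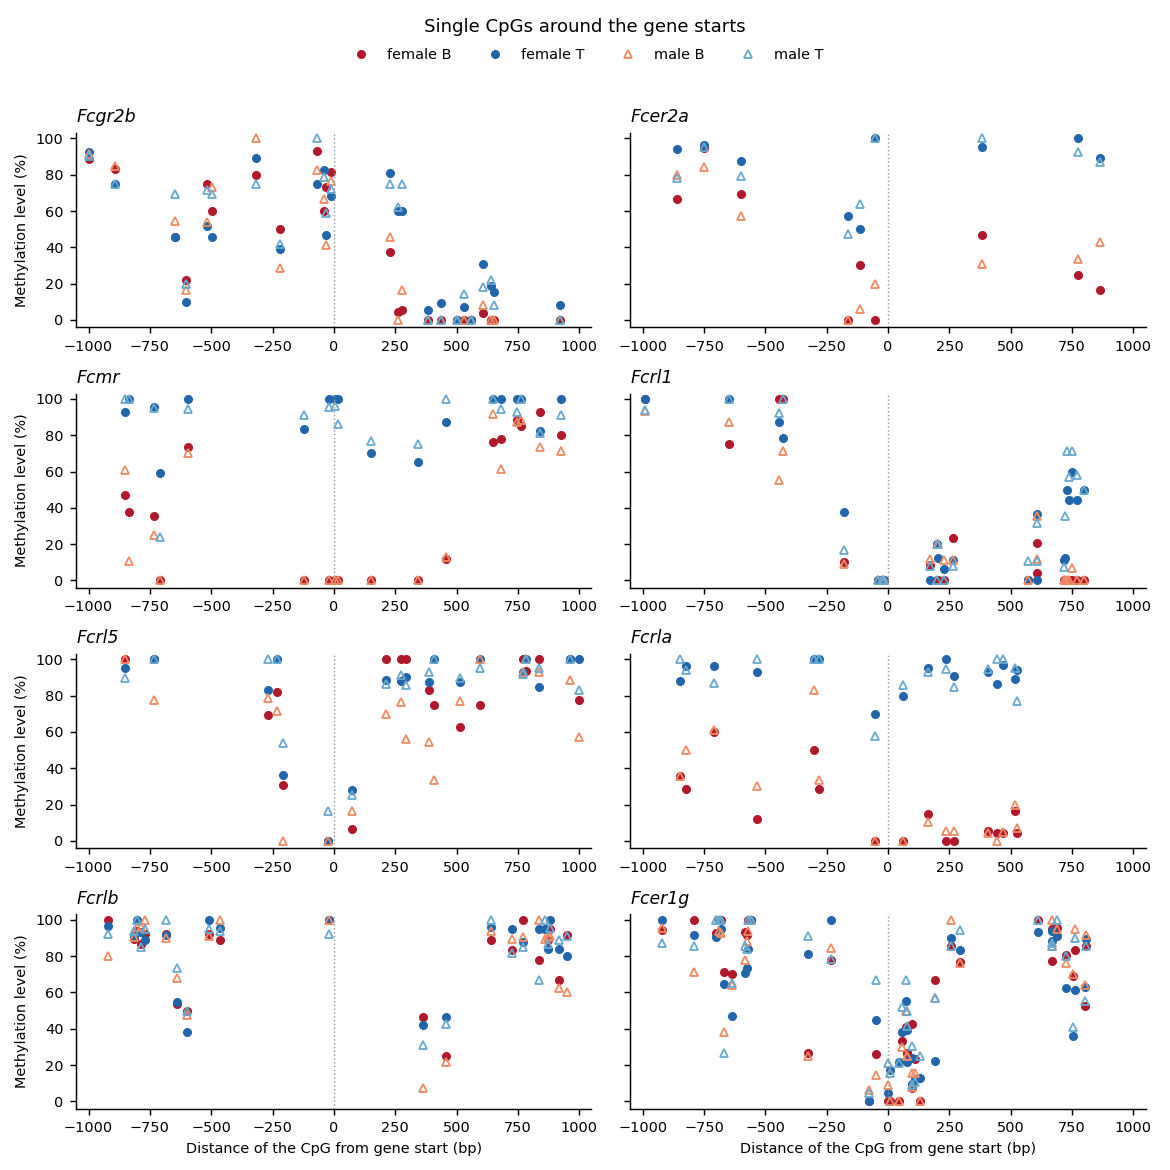
Methylation level in percent (y axis) of single CpGs within 1000 bp of the start of each gene (x axis, distance in bp), female files as filled circles and male files as open triangles, B cells red and orange and T cells blue. B cell points sit at 0% across the start of Fcmr while T cell points sit at 65.2% or more, and all 4 files are at 0% just before the start of Fcrl1.

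Fcrla kept its promoter call without each of the 4 files in turn, while Fcer2a lost it without each (adjusted p 0.123 to 0.243) and Fcmr lost it without the female T, the male B or the male T file (adjusted p 0.0718, 0.0578 and 0.0727), with differences of −38.9 to −45.5 and −46.8 to −51.5 points in those fits. Over the genome the same fits called 32 to 40 promoters, against 189 with all files. The fits without a file also had no term for sex, and their difference was the mean of the B files minus the mean of the T files. The effect of the missing file alone was not tested. With limma, the leading windows, those with the largest difference in the sex where it was smaller, lost their call upstream of Fcgr2b (adjusted p = 0.0944) and, among those higher in B cells, at the Fcmr locus (0.109) and the Fcrla locus (0.107). By locus, limma called 1 window at Fcgr2b, 3 at Fcer2a, 2 at Fcmr, 5 at Fcrl1, 2 at Fcrl5, 3 at Fcrla and 0 at Fcrlb. The main fit called 2, 4, 6, 9, 6, 7 and 1. Over all windows limma called 1.02%, against 2.08% in the main fit.

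Over whole gene bodies the differences were small, from −12.4 to 3.54 points. No body was called, against 0.319% of all bodies, and limma called none. In the quasi-binomial fit 6 of the 8 had an unadjusted p under 0.05, but the share of all bodies with such a p was not computed. Fcrla (−12.4 points, adjusted p = 0.0337) and Fcrl1 (−9.17 points, adjusted p = 0.0471) had an adjusted p under 0.05, as did 2.75% of all bodies. Without the first 1 kb, Fcrla differed by −3.76 points (adjusted p = 0.0510), while Fcrl1 (−7.00 points, 0.00227), Fcer2a (−5.21, 0.00922), Fcgr2b (−3.86, 0.00946) and Fcrl5 (−2.85, 0.0153) passed the adjusted p. The share of all bodies that passed it in this setting was not computed, and the 2.75% is for whole bodies. At CpGs with 10 or more reads, the body of Fcrla differed by −13.5 points (adjusted p = 0.0152) and that of Fcrl1 by −5.55 points (0.148). The body of Fcrla was at 75.8% and 77.9% in B cells and at 88.4% and 90.0% in T cells. Fcrlb had the lowest body level, between 22.3% and 26.1% in the 4 files.

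The second comparison asked whether the sexes differed at these loci. Female and male files gave no called window in the quasi-binomial fit (0 of 288, against 0.0761% of all windows), with 23 windows at an unadjusted p under 0.05. A single window passed the adjusted p (0.0187): at chr1:170985001-170986000, 9.0 kb upstream of Fcgr2b, levels were 66.7% and 84.7% in the B files and 77.8% and 86.6% in the T files. No window had an interaction of cell type and sex (lowest adjusted p 0.516, against 0.0142% of windows called in the genome, and 18 with an unadjusted p under 0.05). With the prior from all windows 3 did. The share of all windows with an interaction under that prior was not computed, and the 0.0142% is from the main fit. All 35 windows that differed between cell types did so in the same direction in females and in males.

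**Figure D4:**
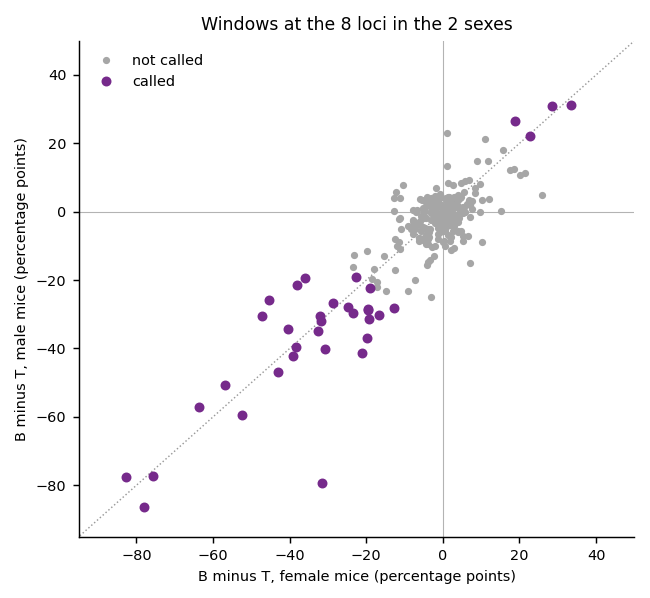
Difference between B and T cells in percentage points in female mice (x axis) and in male mice (y axis) for the 288 windows at the 8 loci, called windows in purple, others in grey, with the dotted line marking equal differences. The 31 windows called lower in B cells lie below 0 in both sexes and the 4 called higher lie above 0 in both.

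The remaining Fc receptor genes and the signalling genes downstream of Fc receptors were described by the same promoter rule. At the annotated gene start, none of 11 promoters of other Fc receptor genes was called in the quasi-binomial fit or by limma (3 had an unadjusted p under 0.05). Their median difference was −0.25 points. The largest was 9.33 points at Trim21, an intracellular antibody receptor. At the start of its principal transcript, the activating IgG receptor gene Fcgr3 was more methylated in B cells, with 77.6% and 77.8% in the B files and 57.4% and 56.4% in the T files (20.8 points, adjusted p = 0.00796). This met the rule for a call. At its annotated gene start, Fcgr3 was at 6.56% to 7.71% in the 4 files over 172 CpGs, with 6235 to 10076 reads a file. By windows, Pigr, the transporter of polymeric immunoglobulin, had 7 of 43 windows lower in B cells, and Fcamr, a receptor for IgA and IgM, had 4 lower and 2 higher of 34, against 2.08% of all windows called in either direction. Of the other Fc receptor genes, Fcgr3 had 1 window lower and 2 higher of 33, Ms4a2 had 1 of each of 24, Fcgr1 and Trim21 had 1 higher each, and 5 had none. Pigr lies between Fcamr and Fcmr on chromosome 1. With 10 kb to either side the Pigr locus overlaps each of theirs, so that a window can be counted for Pigr and for its neighbour. The loci of Fcamr and Fcmr do not overlap. Among 13 signalling genes, the promoters of Blnk, a B cell adaptor (12.6% and 9.71% in B, 56.9% and 62.5% in T, −48.5 points), and Dok3, an inhibitory adaptor (6.30% and 8.05% in B, 37.5% and 37.6% in T, −30.4 points), were less methylated in B cells. Lcp2, an adaptor named here after its values were seen, went the other way (21.7% and 30.5% in B, 7.37% and 5.77% in T, 19.5 points, adjusted p = 0.0113) and fell short of the size required. Btk, a kinase gene on the X chromosome also named after its values were seen, was at 56.4% and 2.20% in B and 73.9% and 44.4% in T cells (−29.9 points, adjusted p = 0.102), and its interaction of cell type and sex had an adjusted p of 0.00876. The signalling list had a median of −0.57 points.

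**Figure D5:**
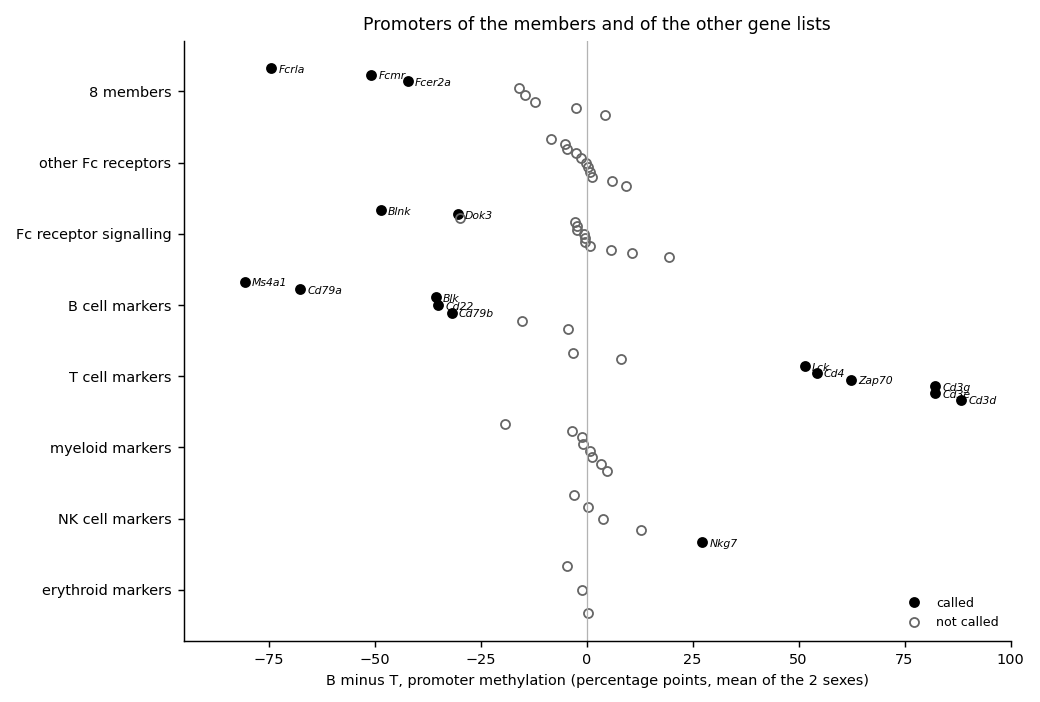
Difference in promoter methylation between B and T cells in percentage points, as the mean of both sexes (x axis), for the 8 genes and 7 other gene lists (rows), 1 point per gene and called promoters filled. Fcrla, Fcmr and Fcer2a lie at −74.4, −50.8 and −42.2 points, in the range of the called B cell markers, and the 11 other Fc receptor promoters lie around 0.

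Short motifs of factors known in B cells were looked for on both strands of the 300-base RefSeq promoters, as a description of sequence. The PU.1 motif GAGGAAGT occurred in the promoters of Fcrl1 and Fcrlb and in 3.20% of all 32851 promoters. The E box CAGCTG occurred at Fcmr and Fcer1g (16.3% of promoters) and the E box CACCTG at Fcmr, Fcrla and Fcrlb (20.2%). The EBF1 motif CCCNNGGG (13.7%) and the octamer ATGCAAAT (1.74%) had no match in the 8 promoters.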

How the data were processed

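Whole-genome bisulfite libraries of 4 groups (2 samples and 1 file each) were used. The submitters' processing notes name Trim Galore, FastQC, Bismark 0.13.1 and mm10. The files give per CpG the methylation level as a fraction, deposited by the authors, and the coverage as a read count, deposited by the authors with strands merged and a minimum of 5 reads. Duplicate removal and conversion rates are not given in the sources used here. Methylated reads were recovered as fraction times count, within 0.0011 of whole reads in 100% of entries. Positions were shifted to count from 1, and 0 of them missed a CpG of the reference.

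Reads were summed per 1 kb window, promoter and gene body with at least 3 CpGs, and modelled by quasi-binomial regression on cell type and sex (1 residual degree of freedom). Dispersions were squeezed with limma 3.58.1 (R 4.3.3), the prior coming from features with 5 or more expected methylated and unmethylated reads in every file; for windows its degrees of freedom were infinite, which fixed the dispersion. Terms were tested with Benjamini-Hochberg adjustment over all features and called at an adjusted p under 0.05 and 20 points. Shares of all features with an unadjusted p under 0.05 were not computed, so counts by unadjusted p have no base rate here. Wilson intervals (95%) and upper limits for 0 reads (3 counts) cover counting error only, and PCR copies are not told apart. A read was counted at each CpG it covers, so 1 read can enter a sum several times. Intervals and limits over neighbouring CpGs are therefore too narrow. Windows named per locus were called and ranked first, in each direction, by the difference in whichever sex showed less of it, together with the windows around them, and stretches of CpGs near starts were chosen after their values were seen. The members, lists, tests and dispersion prior were chosen with earlier results of these data known. Coordinates are GRCm38, and exons, introns and starts come from GENCODE M21. One gene of the marker list is not reported here.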

Additional observations from a re-analysis of the deposited data

How the results depend on the processing

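The 35 windows called at the 8 loci (12.2% of 288) became 47 with 500 bp windows (11.3% of 415), 18 with 2 kb windows (11.25% of 160), 21 without flanks (13.9% of 151), 57 at 10 points, 19 at 30 points, 16 with limma, 27 with Fisher's exact test in each sex and 0 with the dispersion prior from all windows, a setting under which 0 windows were called in the whole genome. Of 2018320 windows in the genome, 41977 were called in the main fit, 85261 at 10 points and 21020 at 30 points. In the genome 72395 windows of 500 bp and 16863 of 2 kb were called, and their shares of all windows of that size were not computed. Limma called 1.02% of all windows and Fisher's exact test 1.75%, against 2.08% in the main fit. At the loci the shares were 19.8% at 10 points, 6.60% at 30 points, 5.56% with limma and 9.375% with Fisher's exact test. Leaving out each file in turn gave 30 to 36 windows, 1 to 2 of the 3 called member promoters (32 to 40 of all promoters, against 189), 0 to 1 called promoters among the other Fc receptor and signalling genes (2 with all files), and 0 gene bodies. The count over all windows in the fits without a file is not given here, so the 30 to 36 windows cannot be set against it. At 10 points 1 gene body, Fcrla, and 1 window between the sexes were called, and the shares of all bodies and windows are not given here. The prior from all windows gave 3 windows with an interaction. The interaction was tested against the prior dispersion alone, taken as fixed, which was 0.741 in that setting and 1.29 in the main fit. The Fcer1g promoter turned from 4.41 to −5.94 points with 500 bp to either side, and its body from 3.54 points to between −0.0353 and 7.11 points when single files were left out, all uncalled. The cause of these changes was not tested. The member promoters kept their direction and side of the threshold in 79 of 88 values and the named windows in 109 of 129, the others being weaker calls except 1 promoter, Fcrl1, that passed at 10 points, and the reversal above. These tallies are no measure of robustness. Promoters uncalled in the main fit counted as kept when they stayed uncalled, and the weaker promoter calls were all of Fcer2a and Fcmr. Named windows were picked as called at 20 points, so a cut of 10 points could not remove them. Other window sizes and flanks were not among their settings. B and T samples could not be paired by replicate, because the groups share no replicate numbers. The term for sex, used only in fits with all 4 files, compared the B and T files within each sex.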
